A study of Homo sapiens with 9 samples.

Results

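Long intergenic noncoding RNAs are transcripts without a long reading frame that come from genes lying between protein-coding genes, and most of them carry a symbol made of LINC and a number. The genes described here are the 120 with such a symbol whose raw RNA-seq counts, summed over 9 libraries of 3 human breast cancer cell lines, reached 200. The deposited table held 58884 genes, of which 1941 had a LINC symbol, 795 of these had at least 1 count but fewer than 200 and 1026 had none. The genes were chosen by their summed counts, so their levels are given as a description. Just inside the limit lay LINC00639 with 201 counts, LINC01204 with 206 and LINC00705 with 210, and just outside it lay LINC00989 with 199, LINC02575 with 198 and LINC00623 with 197.

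The libraries came from MDA-MB-231 cells, an established line of triple-negative breast cancer of the claudin-low type. Par is the parental line, and LM2 and BrM2 are sub-populations derived from it by selection in mice for growth in the lung and in the brain. The 3 lines were cultured in the same medium with no treatment, so the comparisons were between line identities only, with 3 biological replicates per line taken at different passages. LM2 and BrM2 were each represented by a single selected population, so a difference between lines cannot be told apart from a difference between these populations.

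Few long noncoding RNAs are translated, and those studied act in the nucleus or cytoplasm by binding chromatin regulators, transcription factors, splicing factors or microRNAs, or mark a regulatory element whose transcription affects a nearby gene. They are usually less abundant than mRNAs and more restricted to particular cell types. In breast cancer several are known for roles in growth, invasion or drug response. LINC01139 (also called LINK-A) has been described as a kinase-binding RNA of triple-negative breast cancer, LINC02657 (now LASTR) as a stress-induced RNA that aids splicing, and LINC01638 as an RNA that sustains mesenchymal traits.

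Of the 120 genes, 5 passed the threshold in each of the 3 comparisons between lines described in the following paragraphs, namely LINC02009, LINC01234, LINC00707, LINC00632 and LINC01929. RefSeq promoters (250 bases before to 50 after the start, build GRCh38.p14) were matched for 4 of them and are printed because these genes passed in every comparison. The place of LINC00632 among the 5 rests on LM2 against Par (adjusted p = 0.045), a call that was lost in 7 of the 9 fits with 1 library left out, and that of LINC01929 in the same comparison was lost in 1. The promoter of LINC02009 lies at chr3:46423618-46423917 on the minus strand, that of LINC01234 at chr12:113773634-113773933 on the minus strand, that of LINC00632 at chrX:140709509-140709808 on the plus strand and that of LINC01929 at chr18:55124257-55124556 on the minus strand. Capitals mark matches to TGANTCA, the element bound by AP-1 factors, which reads the same on both strands.
LINC02009: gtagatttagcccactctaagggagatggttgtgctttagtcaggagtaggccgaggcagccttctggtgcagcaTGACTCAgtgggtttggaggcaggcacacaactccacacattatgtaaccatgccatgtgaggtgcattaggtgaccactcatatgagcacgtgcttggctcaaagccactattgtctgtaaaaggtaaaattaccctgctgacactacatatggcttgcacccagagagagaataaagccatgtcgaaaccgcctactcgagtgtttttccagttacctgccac
LINC01234: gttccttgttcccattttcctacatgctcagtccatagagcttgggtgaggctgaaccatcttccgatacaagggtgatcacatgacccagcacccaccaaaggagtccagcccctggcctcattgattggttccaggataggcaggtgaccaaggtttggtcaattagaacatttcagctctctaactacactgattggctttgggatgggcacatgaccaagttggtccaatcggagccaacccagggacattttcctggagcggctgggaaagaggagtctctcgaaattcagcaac
LINC00632: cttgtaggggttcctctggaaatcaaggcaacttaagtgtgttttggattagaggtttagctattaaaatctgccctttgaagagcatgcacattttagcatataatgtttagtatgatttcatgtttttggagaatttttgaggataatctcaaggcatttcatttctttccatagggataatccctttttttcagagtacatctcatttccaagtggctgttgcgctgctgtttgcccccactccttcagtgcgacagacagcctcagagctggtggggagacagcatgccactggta
LINC01929: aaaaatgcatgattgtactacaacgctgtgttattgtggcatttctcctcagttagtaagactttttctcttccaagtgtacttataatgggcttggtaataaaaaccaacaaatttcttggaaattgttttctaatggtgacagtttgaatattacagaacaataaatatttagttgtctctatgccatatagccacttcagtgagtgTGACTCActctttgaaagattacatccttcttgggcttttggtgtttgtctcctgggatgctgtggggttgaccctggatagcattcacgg

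A match to TGANTCA was found in the promoters of LINC02009 and LINC01929 and in neither of the other two. Among the 91 members with a RefSeq promoter, 16 (17.6%) held this element, against 7.76% of all 27305 promoters of the same length. For the other motifs the shares were 24.2% against 17.6% for CCGGAA (ETS factors), 47.3% against 35.7% for CCAAT, 13.2% against 12.0% for TATAAA, 46.2% against 44.6% for GGGCGG (the GC box) and 4.4% against 7.43% for CACGTG (the E-box), all on both strands. CpG content was close to that of all promoters, since the observed to expected CpG ratio reached 0.6 in 48.4% of the members' promoters and 49.0% of all. Of the 16 promoters with the AP-1 element, those of LINC02009, LINC01929, LINC01615, LINC00963, LINC02657, LINC00601 and LINC01411 belong to members that passed in at least 1 comparison. The others, of members that passed in none, were those of LINC00973, LINC02535, LINC00702, LINC00346, LINC01443, LINC00460, LINC01094, LINC01002 and LINC01001. Of the 27 promoters of members that passed the threshold in at least 1 comparison, 7 held the element (25.9%), against 9 of the 64 other promoters (14.1%). These 27 promoters also had a lower median GC content (54.3% against 60.9%), and fewer of them reached the CpG ratio of 0.6 (33.3% against 54.7%). A match describes these letters only, and binding was not measured.

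Counts on genes were between 14371858 and 24511786 per library, and the 120 members took 0.0548% to 0.0852% of them. CPM values are counts scaled to a common normalised library size, and they are compared between lines for a gene, not between genes, because they are not divided by length. The median member had 514 counts over the 9 libraries, against 5012 for the 13326 genes that reached 200 counts, and 10 members held 39.5% of the members' counts. All 120 members were tested, and 111 had more than 3 counts in every library. Replicate 1 stood apart in each line. Deviations from the line means were shared between libraries of equal replicate number (correlations of 0.237 to 0.896 across genes), so counts of genes past the threshold are given without and with the replicate number as a block. The epithelial keratins KRT8 and KRT18 and the mesenchymal markers VIM and CD44 were abundant in every library. KRT19 lay between 28.9 and 284 CPM, ZEB1 between 18.3 and 138 CPM and EPCAM between 2.73 and 7.89 CPM. CDH1, which encodes E-cadherin, lay between 0.143 and 1.95 CPM and ESR1 between 0.105 and 0.649 CPM, while the defining markers of leukocytes, erythroid cells and neurons (PTPRC, CD3E, HBB, HBA1 and RBFOX3) were at 0 to 6 counts per library. PECAM1, PDGFRB and GFAP, which are used as markers of endothelial, stromal and glial cells, were detected at 2.07 to 7.15, 3.85 to 31.2 and 5.5 to 21.3 CPM. The endothelial marker CDH5 had 0 to 4 counts per library and the fibroblast marker DCN 0 to 2. The part of PECAM1, PDGFRB and GFAP in the results was not tested.

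The comparison of LM2 with Par asks which of these RNAs differ in the population selected for the lung. LINC01139 and LINC00565 were far higher in LM2, LINC02009 and LINC01085 far lower, and most members did not pass the test. At an adjusted p of 0.05, edgeR placed 11 members higher and 7 lower in LM2, 18 of 120 (15.0%), where 8.07% of all tested genes were called (3.89% higher and 4.18% lower). With the replicate block the counts were 42 members (35%) and 33.6% of all genes, which is close to the background, and DESeq2 called 31 members (25.8%) and 13.8% of all genes. The libraries of both lines did not overlap for 51 members (42.5%), against 24.8% of all tested genes.

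LINC01139, the kinase-binding RNA, lies on chromosome 1 at 238480384 to 238486017 (GRCh38.p14, minus strand). It was at 0.526, 0.674 and 0.625 CPM in the Par libraries and at 17.5, 18.1 and 17.8 CPM in those of LM2. Every LM2 library lay above every Par library, and the fitted log2 fold change was 4.86 ± 0.26 (SE, n = 3 and 3, adjusted p = 6.5e-05). LINC00565, now named SWINGN and described as a partner of the SWI/SNF chromatin remodeler, measured 0.526, 0.289 and 0.195 CPM in Par and 6.16, 4.87 and 5.82 CPM in LM2 (log2 fold change 4.07 ± 0.36, adjusted p = 0.00028). LINC01615, on chromosome 6 at 169158092 to 169162989 (minus strand), stood at 1.79, 3.42 and 2.54 CPM in Par and at 33.9, 25.5 and 22.1 CPM in LM2, which gave 3.39 ± 0.31 on the log2 scale (adjusted p = 0.00031). These 3 RNAs were well separated between the lines, with no library of LM2 near the Par values.

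Rises under 2 on the log2 scale were found for further members. LINC01234, described as growth-promoting in several carcinomas, was at 3.84, 4.71 and 5.78 CPM in Par and 18.8, 16.4 and 18 CPM in LM2 (log2 fold change 1.89 ± 0.30, adjusted p = 0.0054). LINC00707 measured 0.684, 1.06 and 1.13 CPM in Par and 2.24, 2.68 and 3.31 CPM in LM2 (1.51 ± 0.28, adjusted p = 0.011). LINC02657 (LASTR) was at 1.26, 2.07 and 1.49 CPM against 4.03, 5.27 and 3.88 CPM (1.45 ± 0.28, adjusted p = 0.014). In each of these RNAs the lowest LM2 library was above the highest Par library. LINC00601, LINC01605, LINC00337 and LINC02188 also rose, by 0.95 to 1.44 on the log2 scale. The rise of LINC00632, whose locus is the source of the circular RNA CDR1as, was larger but rests on few counts. It had 3 counts in all Par libraries together and 42 in those of LM2, a ratio of 12.9 with a 95% counting interval of 4.12 to 65.0 (adjusted p = 0.045). The circular form was not measured here.

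Among the members that fell in LM2, LINC02009 was at 48.2, 32.5 and 26.1 CPM in Par and at 1.99, 1.91 and 1.45 CPM in LM2, with a log2 fold change of -4.32 ± 0.35 (adjusted p = 0.00017). LINC01085, which GENCODE lists as a transcribed processed pseudogene, measured 5.78, 10.1 and 9.77 CPM in Par and 0.348, 1.01 and 1.6 CPM in LM2 (-3.08 ± 0.51, adjusted p = 0.0065). LINC00639 was at 2.1, 2.79 and 2.23 CPM against 0.199, 0.446 and 0.495 CPM (-2.60 ± 0.46, adjusted p = 0.0086). All Par libraries were above all LM2 libraries for these 3 genes. LINC01929 had 38 counts in the Par libraries and 2 in those of LM2, which is 20.6 times fewer per normalised library (95% counting interval 5.33 to 177, adjusted p = 0.012). LINC01224, LINC01444 and LINC01833 fell by 1.64, 1.28 and 1.15 on the log2 scale.

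The calls for 10 of these 18 members held whichever library was left out, and those for LINC01605, LINC00632, LINC02657, LINC00601, LINC00337, LINC01833, LINC02188 and LINC01929 did not, with adjusted p values of up to 0.069, 0.15, 0.064, 0.17, 0.19, 0.067, 0.092 and 0.053. The call for LINC00337 was lost in all 9 of these fits. The number of calls lost was 8 without LM2 replicate 2, 7 without Par replicate 3, 6 each without Par replicates 1 and 2, 5 without LM2 replicate 3, 4 and 2 without BrM2 replicates 3 and 2, and 1 each without LM2 replicate 1 and BrM2 replicate 1, the BrM2 libraries counting because all lines share the estimate of the spread. Members that passed only with the replicate block included LINC01291 (adjusted p = 8.4e-05 against 0.062 without it), LINC01293 (0.00031 against 0.093), LINC01505 (0.00026 against 0.052) and LINC01638 (0.0003 against 0.054). When replicate 1 was left out in all 3 lines, 38 members were called, among them all 18.

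**Figure D1:**
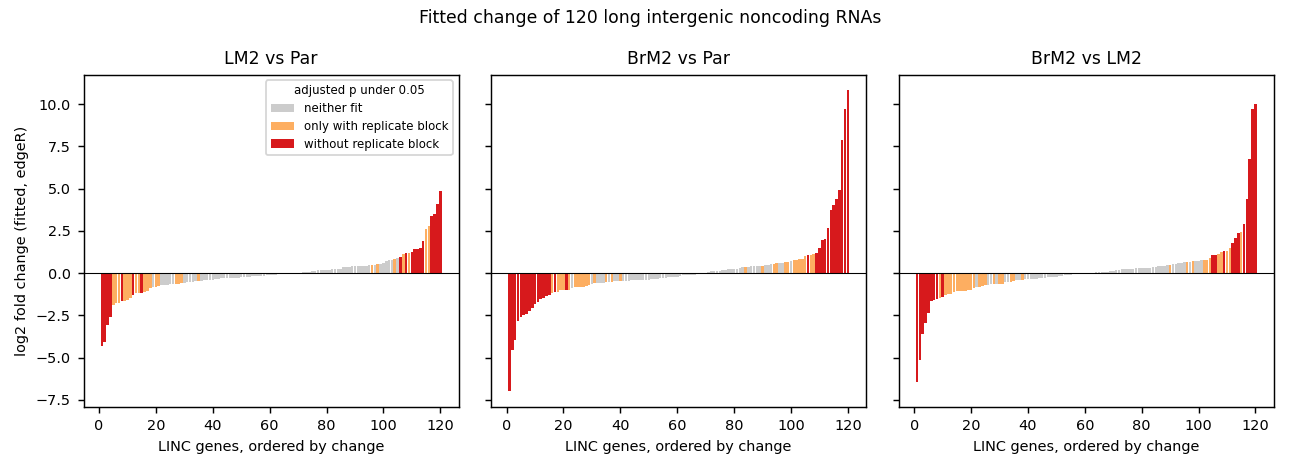
Fitted log2 fold change (y axis) of the 120 long intergenic noncoding RNAs, ordered from the lowest to the highest in each comparison (x axis), with bars coloured by whether the adjusted p was under 0.05 without the replicate block, only with it, or in neither fit. Both tails were longer in the comparisons that include BrM2, where 30 members were called against Par and 20 against LM2. Bars of genes that are at the floor of 3 counts per library in a line depend on the prior count of the fit and are no bounds, as for LINC02582 and LINC00648.

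The comparison of BrM2 with Par asks the same of the population selected for the brain. LINC02582, LINC00648 and LINC00632 were abundant in BrM2 and almost absent from Par, LINC01505 and LINC01234 were almost absent from BrM2, and more members fell than rose. The test placed 13 members higher and 17 lower, 30 of 120 (25%), where 12.4% of all tested genes were called (5.73% higher and 6.66% lower). With the replicate block 58 members (48.3%) and 41.4% of all genes were called, and with DESeq2 34 members (28.3%) and 18.2% of all genes. Libraries did not overlap for 60 of the 120 members, against 30.6% of all genes.

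LINC02582, described as an RNA that raises radioresistance of breast cancer cells, lies on chromosome 18 at 73324941 to 73349889 (GRCh38.p14, plus strand). It was at 0.0526, 0 and 0.117 CPM in Par and at 109, 115 and 145 CPM in BrM2. This is 4 counts against 7124, a ratio of 2040 with a 95% counting interval of 795 to 7470 (adjusted p = 0.00014), and LM2 held 8 counts. LINC00648, on chromosome 14 at 47764953 to 47795014 (minus strand), had no count in any Par or LM2 library and 302 counts in BrM2, at 2.37, 6.73 and 5.58 CPM, which is at least 35-fold higher than 3 counts per Par library (adjusted p = 0.0046). LINC00632 was at 5.77, 16.1 and 13.8 CPM in BrM2, 734 counts against 3 in Par and a ratio of 280 (95% counting interval 95.3 to 1360, adjusted p = 0.00035). For these genes replicate 1 was the lowest BrM2 library and was still far above every Par library. Of the transcript sequence of LINC02582, 14.3% of 50-base stretches occur in another gene, and of LINC00648 5.84%, so some of their reads could have come from elsewhere.

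LINC00707, on chromosome 10 at 6779598 to 6842906 (plus strand), measured 0.684, 1.06 and 1.13 CPM in Par and 18.3, 24 and 19.4 CPM in BrM2, with a log2 fold change of 4.41 ± 0.30 (n = 3 and 3, adjusted p = 6.6e-05). LINC01139 was at 15.5, 22.9 and 18.4 CPM in BrM2, above each Par library, with 4.94 ± 0.26 (adjusted p = 2.8e-05). LINC01929, which was lower in LM2, was higher here, at 3.11, 4.35 and 3.63 CPM against 0.421, 0.481 and 0.782 CPM in Par (2.69 ± 0.46, adjusted p = 0.0057). These 3 RNAs had no BrM2 library near the range of Par. LINC01291 and LINC01293 rose by 4.01 ± 0.77 and 3.76 ± 0.84 (adjusted p = 0.0097 and 0.019), LINC00886 by 2.04 ± 0.41, LINC00452 by 1.95 ± 0.27, LINC01547 by 1.47 ± 0.37, LINC02657 by 1.22 ± 0.28 and LINC01117 by 1.07 ± 0.25.

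LINC01505, on chromosome 9 at 106616058 to 106679802 (plus strand), was at 7.26, 11.7 and 9.69 CPM in Par and at 0, 0.044 and 0.143 CPM in BrM2, 629 counts against 4 and 138 times fewer per normalised library (95% counting interval 53.5 to 507, adjusted p = 0.00044). LINC01234 fell to 0.37, 0.176 and 0.0954 CPM from 3.84, 4.71 and 5.78 CPM, a log2 fold change of -4.55 ± 0.40 (adjusted p = 0.00021). LINC01085 and LINC00639, both lower in LM2, were lower in BrM2 too, with log2 fold changes of -3.93 ± 0.55 and -2.82 ± 0.49 (adjusted p = 0.002 and 0.0057). No BrM2 library of these 4 genes reached a Par library. LINC02009 was at 9.77, 6.86 and 5.68 CPM in BrM2 (-2.26 ± 0.31, adjusted p = 0.0018), between LM2 and Par.

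Further members fell in BrM2. LINC01638, known for sustaining mesenchymal features, was at 7.99, 6.06 and 4.49 CPM in Par and 1.41, 0.748 and 0.907 CPM in BrM2 (log2 fold change -2.62 ± 0.43, adjusted p = 0.0043). LINC01503, driven by a super-enhancer in squamous carcinoma, measured 1.42, 1.54 and 1.8 CPM against 0.592, 0.176 and 0.143 CPM (-2.50 ± 0.61, adjusted p = 0.029). LINC01411 was at 6.89, 4.09 and 4.92 CPM against 1.41, 1.14 and 0.477 CPM (-2.41 ± 0.40, adjusted p = 0.0046). The lines did not overlap for any of them. LINC01303, LINC01134, LINC00654, LINC00963, LINC00663, LINC00638, LINC01588, LINC01711 and LINC00205 fell by 0.99 to 2.07 on the log2 scale.

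Of the 30 calls 17 held whichever library was left out. The other 13 were those of LINC00205, LINC00963, LINC01547, LINC01293, LINC02657, LINC01711, LINC01291, LINC00638, LINC01503, LINC01134, LINC00663, LINC00886 and LINC01117, with adjusted p values of up to 0.14, 0.063, 0.13, 0.075, 0.093, 0.083, 0.053, 0.12, 0.13, 0.058, 0.091, 0.061 and 0.11. Calls lost numbered 11, 8 and 5 without Par replicates 2, 3 and 1, 10, 9 and 5 without BrM2 replicates 2, 3 and 1, and 3 without LM2 replicate 2. LINC01615, at 5.47, 5.85 and 4.49 CPM in BrM2, passed only with the block (adjusted p = 0.0064 against 0.052). Without replicate 1 in all lines, 52 members were called, among them all 30.

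**Figure D2:**
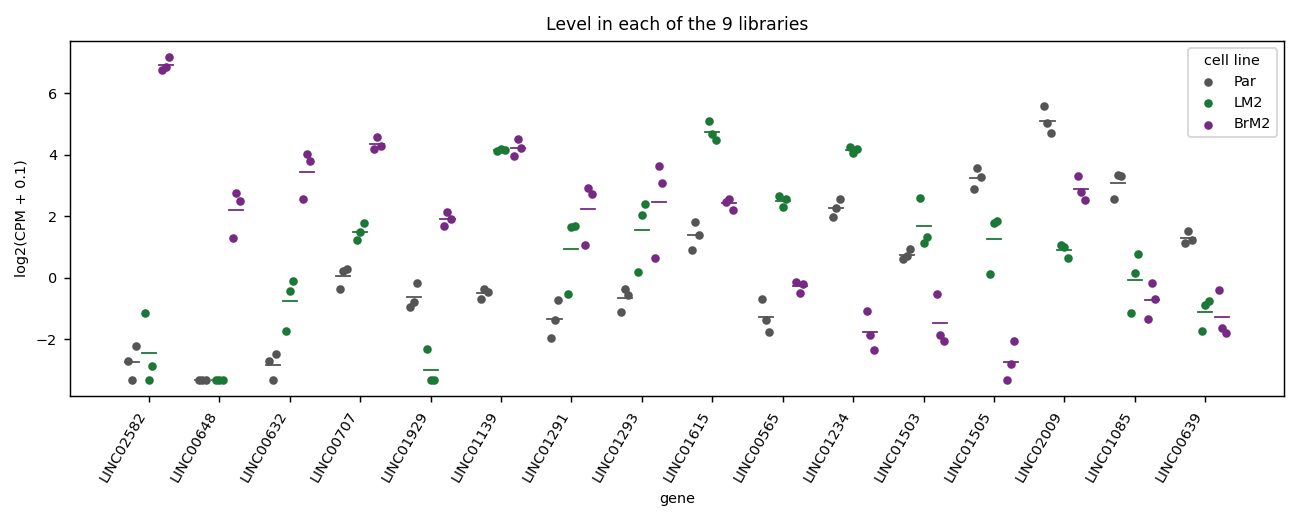
Level of 16 long intergenic noncoding RNAs (x axis) in each of the 9 libraries as log2(CPM + 0.1) (y axis), with 1 point per library and a line at the mean of each cell line. LINC02582, LINC00648 and LINC00632 lie highest in BrM2, LINC01615 and LINC00565 highest in LM2, LINC02009, LINC01085 and LINC00639 highest in Par, and libraries without a count lie at the lowest level.

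The direct comparison of BrM2 with LM2 shows where the 2 metastatic populations differ. The largest fitted differences were those of LINC02582, LINC00648 and LINC01929 on the BrM2 side and LINC01234, LINC01505 and LINC01503 on the LM2 side. The test called 11 members higher and 9 lower in BrM2, 20 of 120 (16.7%), where 7.45% of all tested genes were called (3.57% higher and 3.88% lower). DESeq2 called 30 members and 13.1% of all genes. With the replicate block 52 members (43.3%) and 36.3% of all genes passed, and libraries did not overlap for 49 members (40.8%), against 22.6% of all genes.

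LINC01234 was lower in BrM2 by a log2 fold change of -6.44 ± 0.41 (n = 3 and 3, adjusted p = 7.3e-05), with every LM2 library at 16.4 CPM or more and every BrM2 library at 0.37 CPM or less. LINC01505, at 0.994, 3.33 and 3.5 CPM in LM2, was 39.1 times less abundant in BrM2 (95% counting interval 15.0 to 145, adjusted p = 0.0037). LINC01503 stood at 5.91, 2.07 and 2.4 CPM in LM2 and was lower in BrM2 by a log2 fold change of -3.61 ± 0.61 (adjusted p = 0.0076). LINC00565 and LINC01615, the RNAs raised in LM2, were lower in BrM2, with log2 fold changes of -2.94 ± 0.33 and -2.36 ± 0.29 (adjusted p = 0.00089 and 0.0016). LINC01303, LINC01711, LINC02188 and LINC00654 were also lower, by 1.44 to 1.64 on the log2 scale.

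In the other direction, LINC01929 had 2 counts in LM2 and 217 in BrM2, a ratio of 135 (95% counting interval 36.8 to 1120, adjusted p = 0.00051). LINC02582, at 0.348, 0 and 0.0381 CPM in LM2, was higher in BrM2 by 9.98 ± 0.83 on the log2 scale (adjusted p = 0.00021). LINC00648 was at least 38.1-fold higher than 3 counts per LM2 library (adjusted p = 0.0069). LINC00632, at 0.199, 0.649 and 0.837 CPM in LM2, was higher by 4.37 ± 0.59 and LINC00707 by 2.90 ± 0.27 (adjusted p = 0.0025 and 0.00036). LINC00452, LINC02009 and LINC00886 were higher by 2.38, 2.06 and 1.77, and LINC00240, LINC01444 and LINC01224 by 1.29, 1.05 and 1.05.

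Of the 20 calls 15 held whichever library was left out, while LINC01224, LINC01444, LINC00886, LINC01303 and LINC00240 reached adjusted p values of up to 0.13, 0.08, 0.11, 0.1 and 0.13. Calls lost numbered 5 each without LM2 replicates 2 and 3 and BrM2 replicate 3, 4 without BrM2 replicate 2, 3 without Par replicate 2, 2 each without Par replicate 3 and BrM2 replicate 1, and 1 without LM2 replicate 1. LINC01139, raised in both populations, did not pass in this comparison (log2 fold change 0.09 ± 0.21, adjusted p = 0.88), and LINC01085 and LINC00639 did not either (adjusted p = 0.47 and 0.88). Without replicate 1 in all lines, 40 members were called, among them all 20.

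Over the comparisons, 40 members (33.3%) passed at least once, against 17.1% of all tested genes, and the 5 that passed in each of the 3 comparisons were 4.17% of the members, against 1.2% of all genes. With the block the shares were 62.5% against 60.7% for at least 1 comparison and 15.8% against 8.16% for all 3. The 3 comparisons share libraries, so these counts are not independent. Of the 5, LINC00632 and LINC01929 reached 200 summed counts only through BrM2, so their calls are not independent of that limit. LINC02009 was highest in Par, intermediate in BrM2 and lowest in LM2, LINC01234 was ordered LM2, Par and BrM2 from high to low, and LINC01929 was ordered BrM2, Par and LM2. LINC00707 and LINC00632 were ordered BrM2, LM2 and Par. In each of these orders both neighbouring steps passed the test. Over all 120 members the line with the highest mean was Par for 50, LM2 for 32 and BrM2 for 38 (41.7%, 26.7% and 31.7%, against 34.1%, 33.1% and 32.8% of all genes).

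The members' fold changes were wider than those of all genes. The median absolute log2 fold change was 0.462 against 0.312 in LM2 and Par, 0.567 against 0.359 in BrM2 and Par, and 0.562 against 0.344 in BrM2 and LM2, and 31, 36 and 34 members (25.8%, 30.0% and 28.3%) differed by more than 1, against 11.5%, 14% and 11.4% of all genes. Their median signed log2 fold changes were -0.101, -0.193 and 0.00779, against 0.0141, -0.0206 and -0.0299 for all genes. Low counts widen fold changes, so the calls were set beside all genes in the same range of summed count. Among the 37 members with 1000 counts or more, 21.6%, 27.0% and 24.3% were called in the 3 comparisons, against 7.34%, 11.2% and 6.54% of genes between 1000 counts and about the count of the largest member. With the block these shares were 43.2%, 62.2% and 64.9% against 33.8%, 41.7% and 37.5%. From 500 to under 1000 counts the unblocked shares were 15.4%, 38.5% and 11.5% against 15.8%, 22.1% and 13.8%, and under 500 they were 10.5%, 17.5% and 14% against 14.8%, 20.1% and 13.1%. With the block they were 38.5%, 57.7% and 46.2% against 40.2%, 47.3% and 40.7%, and 28.1%, 35.1% and 28.1% against 33.3%, 37.9% and 32.9%. In both fits the share of called members was higher than that of all genes in the range of highest counts in all 3 comparisons. From 500 to under 1000 counts this held in BrM2 against Par. The range of highest counts is wide (1000 to 14000), and members were not matched to genes within it. In LM2 against Par the unblocked share of all genes called was 7.34% there and 15.8% from 500 to under 1000 counts. The higher shares of members in that range are therefore not matched for depth. Below 1000 counts in BrM2 against LM2 the direction of the difference depended on the block, and under 500 counts no share of members was above that of all genes with the block.

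**Figure D3:**
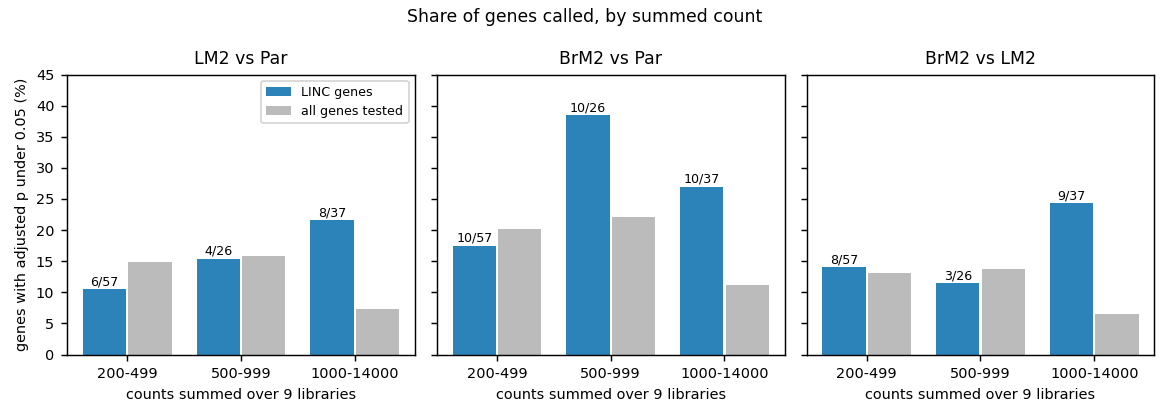
Percentage of genes with an adjusted p under 0.05 (y axis) by the range of counts summed over the 9 libraries (x axis), for the long intergenic noncoding RNAs and for all tested genes in the same range, with the number of members called and tested above each blue bar. In the range from 1000 counts up, the members' bars stand at 21.6% to 27.0% and those of all genes at 6.54% to 11.2%. Members and genes were not matched for count within that wide range.

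A gene can reach the limit of 200 counts through the line where it is high, and such a gene tends to differ. In 72 members the other 2 lines alone held 200 counts or more. Among the named genes outside the 72, LINC02582, LINC00648, LINC00632, LINC01929, LINC01291 and LINC00886 reached the limit only through BrM2. LINC00565, LINC01503 and LINC02188 did so through LM2, and LINC01505, LINC01085 and LINC00639 through Par. These genes are examples, and further called members, such as LINC01134, lie outside the 72. The calls for such genes are not independent of the rule that chose them. Of the 72 members, 12, 15 and 9 were called in the 3 comparisons (16.7%, 20.8% and 12.5%). The shares were 6.53%, 10.7% and 6.08% of the 12096 genes that met the same condition.

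Some members lie next to each other, and the following pairs within 100 kb were chosen after their values were seen. LINC00452 and LINC00565 start 40685 bases apart on opposite strands of chromosome 13, and their exons overlap in the annotation. LINC00452 was at 3.26, 3.85 and 2.46 CPM in Par, 2.19, 2.92 and 1.98 CPM in LM2 and 12.7, 10.3 and 14 CPM in BrM2, so that BrM2 stood alone at the top. LINC00565 was at 0.814, 0.616 and 0.764 CPM in BrM2 and peaked in LM2. The neighbours thus differed from each other in the line of highest level, by a log2 fold change between BrM2 and LM2 of 2.38 for LINC00452 and -2.94 for LINC00565 (adjusted p = 0.00097 and 0.00089). Of their 50-base stretches, 11.1% for LINC00452 and 8.57% for LINC00565 occur in any other gene on either strand. For each, the gene sharing the most was the other of the pair, but the share of the pair alone was not computed. Which strand was counted is not given in the sources used here.

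LINC01293 and LINC01291 start 22110 bases apart on the same strand of chromosome 2, near POLE4, a subunit gene of a DNA polymerase, and RefSeq now joins them under LINC01291. They are still counted here as 2 of the 120 members, and both are among the 13 called higher in BrM2 against Par. LINC01291 was at 0.158, 0.289 and 0.508 CPM in Par, 0.596, 3.04 and 3.12 CPM in LM2 and 2, 7.48 and 6.54 CPM in BrM2. LINC01293 was at 0.368, 0.674 and 0.586 CPM, 1.04, 4.02 and 5.18 CPM, and 1.48, 12.3 and 8.45 CPM. In both genes the replicate 1 libraries of LM2 and BrM2 were the lowest of their line. LINC01444 and LINC01443, 24201 bases apart on chromosome 18, were lowest in LM2, with log2 fold changes of -1.28 and -1.79 against Par (adjusted p = 0.005 and 0.064).

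**Figure D4:**
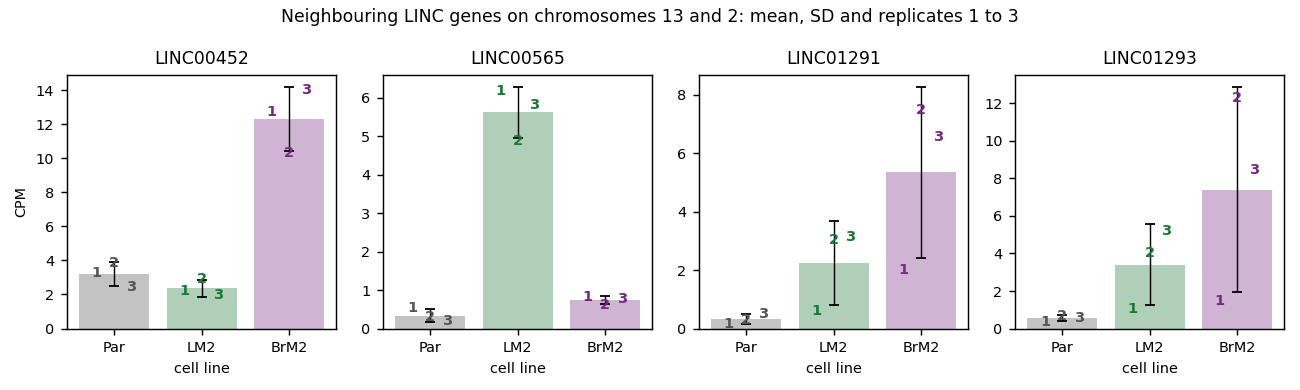
CPM (y axis) of 2 pairs of neighbouring long intergenic noncoding RNAs in the 3 cell lines (x axis), as the mean (bar), the SD (error bar, n = 3) and each replicate (its number). LINC00452 is highest in BrM2 and LINC00565 in LM2, while LINC01291 and LINC01293 share the order Par, LM2 and BrM2, with replicate 1 low in both metastatic lines.

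Protein-coding neighbours were taken as the nearest tested gene by the distance between starts. Of 117 members with such a neighbour, 65 lay within 100 kb of it, 10 started within 1 kb on the opposite strand, and the median distance was 84300 bases. In LM2 against Par, the neighbours of 4 of the 18 called members passed the test (22.2%), and those of 6 of the 99 others (6.06%). In BrM2 against Par the numbers were 6 of 30 (20%) and 12 of 87 (13.8%), and in BrM2 against LM2 4 of 20 (20%) and 4 of 97 (4.12%). Neighbours that passed did not all move with the RNA, since 2 of the 4, 4 of the 6 and 2 of the 4 had the same sign. These counts take neighbours at any distance. Within 100 kb the neighbours of called members passed in 2 of 8, 1 of 13 and 1 of 7 cases in the 3 comparisons. Those of the other members passed in 3 of 57, 7 of 52 and 2 of 58. Of the passing neighbours of called members within 100 kb, 1, 1 and 0 had the same sign.

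CCRL2, an atypical chemokine receptor gene whose start is 16425 bases from that of LINC02009, was at 42.1 ± 3.49 CPM in Par, 10.2 ± 3.40 in LM2 and 19.8 ± 3.94 in BrM2 (SD, n = 3). It fell with LINC02009, by a log2 fold change of -2.04 ± 0.27 in LM2 and -1.08 ± 0.27 in BrM2 (adjusted p = 0.0021 and 0.029). PRKCQ, the gene of protein kinase C theta, 199248 bases from LINC00707, was at 0.127 ± 0.0426 CPM in Par and 6.72 ± 1.09 in BrM2 (log2 fold change 5.70 ± 0.37, adjusted p = 6e-05). CHRM3, a muscarinic receptor gene 900505 bases from LINC01139, rose in both populations, by 2.73 ± 0.31 in LM2 and 2.08 ± 0.31 in BrM2. In these 3 loci the RNA and its neighbour moved the same way.

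At other loci the RNA and its neighbour moved in opposite directions in at least 1 comparison. THBS2, the gene of thrombospondin 2, 91043 bases from LINC01615, fell in LM2 (log2 fold change -1.49 ± 0.25, adjusted p = 0.0068) where LINC01615 rose by 3.39. In BrM2 against Par both were higher, THBS2 by 3.01 ± 0.25 (adjusted p = 0.00015) and LINC01615 by 1.03 (adjusted p = 0.052). THBS2 was highest in BrM2, at 23.1 ± 2.73 CPM. MSX2, a homeobox gene 388287 bases from LINC01411, rose by 2.60 ± 0.37 in BrM2 where LINC01411 fell by 2.41. RBM19, of ribosome biogenesis, 192599 bases from LINC01234, rose by 0.83 ± 0.19 in BrM2 (adjusted p = 0.024) where LINC01234 fell by 4.55. SPANXB1, 293032 bases from LINC00632, did so in LM2 only, where it fell (-0.94 ± 0.18, adjusted p = 0.014) and LINC00632 rose, while in BrM2 it rose with LINC00632 (2.09 ± 0.19, adjusted p = 0.00022). Another neighbour did not pass without the block. GAS6, a ligand of TAM receptors and the nearest neighbour of LINC00452 and LINC00565, was at 197 ± 48.2 CPM in Par, 145 ± 75.5 in LM2 and 164 ± 80.6 in BrM2 (adjusted p = 0.69 and 0.80). With the block it passed in LM2 (adjusted p = 0.042).

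**Figure D5:**
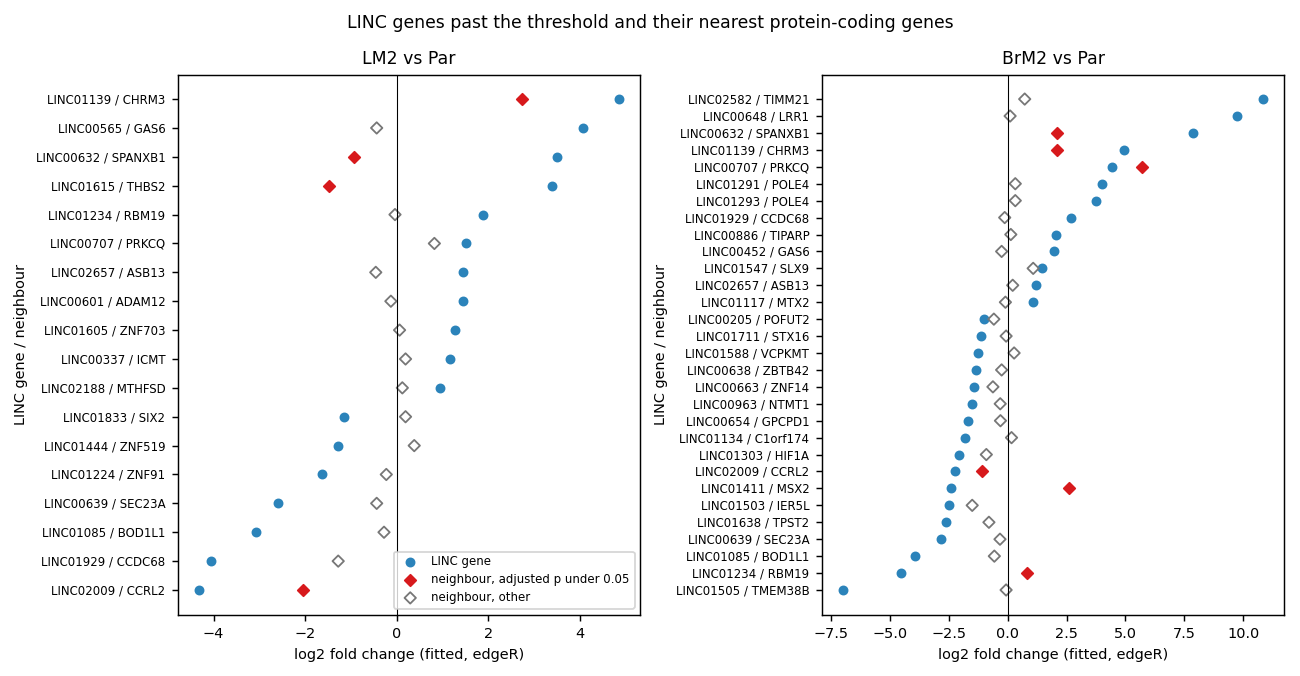
Fitted log2 fold change (x axis) of the long intergenic noncoding RNAs past the threshold (circles) and of their nearest protein-coding genes (diamonds, filled where the neighbour's adjusted p was under 0.05) for each pair (y axis), in LM2 against Par (left, 18 pairs) and BrM2 against Par (right, 30 pairs). Most neighbours lie near 0, and filled diamonds lie on the same side as the circle in 2 of 4 and 4 of 6 pairs.

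By chromosome, 3 of the 5 members on chromosome 9 fell in BrM2 against Par, where 6.66% of all tested genes and 10.9% of the other genes of that chromosome were called lower. The members had a median log2 fold change of -1.52 against -0.37 over the other 486 tested genes of that chromosome. On chromosome 14, picked out after the values were seen, 4 of 6 members fell and 1 rose in BrM2 against Par (median -1.32 against -0.11 for the other 395 genes, of which 6.84% were called lower and 4.3% higher). The other genes of chromosome 13 had a median of 0.55 in LM2 against Par and its 5 members 0.10. Chromosomes 9 and 13 were also picked out of all chromosomes with earlier results of these data known. These are counts of few genes, and copy number was not measured.

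Of 20 LINC genes known from cancer work that were listed for this description, 15 were in the table and 10 were members. In LM2 against Par 1 of the 10 rose (LINC00707), in BrM2 against Par 2 rose (LINC02582 and LINC00707) and 1 fell (LINC01638), and in BrM2 against LM2 2 were higher (LINC02582 and LINC00707). Over all tested genes 8.07%, 12.4% and 7.45% were called. The medians over the 10 were 0.192, -0.115 and -0.148, against 0.0141, -0.0206 and -0.0299 for all genes. With the block the numbers higher and lower were 2 and 1, 2 and 4, and 2 and 4, where 33.6%, 41.4% and 36.3% of all genes were called. LINC00511, described as growth-promoting in breast cancer, was at 36.1, 18.9 and 17.8 CPM in Par, 51.3, 31.5 and 19.7 CPM in LM2 and 20.3, 14.2 and 9.11 CPM in BrM2, with replicate 1 the highest in each line. It passed in none of the comparisons without the block (adjusted p = 0.65, 0.38 and 0.16) and in all 3 with it, at log2 fold changes of 0.46, -0.74 and -1.20. LINC00460 was lower in BrM2 than in LM2 only with the block (adjusted p = 0.016 against 0.12), while LINC00662, LINC01116 and LINC00665 passed in no comparison in either fit.

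Of 10 LINC genes listed for a described peptide or protein, 2 were found in the table by symbol and both were members. LINC00467 was at 11, 12.7 and 9.77 CPM in Par, 11.2, 15 and 11.9 CPM in LM2 and 8.51, 6.55 and 7.87 CPM in BrM2. It passed with the block alone, as lower in BrM2 than in Par (adjusted p = 0.034 against 0.16) and than in LM2 (0.0099 against 0.089). LINC00665 was at 10.5, 7.84 and 8.91 CPM in Par, 14.5, 7.71 and 9.02 CPM in LM2 and 12.3, 9.01 and 8.06 CPM in BrM2, with adjusted p values of 0.82, 0.90 and 0.91, and 21.1% of its 50-base stretches occur in other genes.

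Of the 10 members with the most counts, 7 passed in no comparison without the block. LINC00472, an RNA with tumour-suppressor-like properties in breast cancer, had 13847 counts in all. It was at 50.3, 93.2 and 98 CPM in Par, 27.5, 85.9 and 84.1 CPM in LM2 and 21.9, 79.3 and 70 CPM in BrM2, with replicate 1 far below the others in each line, and its exons overlap OGFRL1 on the opposite strand. The log2 fold changes were -0.29 ± 0.55 in LM2 and -0.50 ± 0.55 in BrM2 (adjusted p = 0.87 and 0.68), and with the block BrM2 was lower than Par (-0.64, adjusted p = 0.012). LINC00205 was at 35.7, 53.9 and 46.3 CPM in Par, 22.4, 32.3 and 34.8 CPM in LM2 and 18.9, 22.8 and 26.9 CPM in BrM2 and fell in BrM2 (-0.99 ± 0.25, adjusted p = 0.035). LINC01224 was at 45.3, 35.2 and 32.6 CPM in Par, 14.3, 9.49 and 12.4 CPM in LM2 and 29.1, 20.8 and 24.9 CPM in BrM2, so that LM2 was well below Par and BrM2 lay between them. LINC00857, LINC01278, LINC01128, LINC01184 and LINC00973 differed by at most 0.58 on the log2 scale in any comparison and passed in none without the block. With the block LINC00857 was higher in LM2 than in Par (adjusted p = 0.013), LINC01128, LINC01184 and LINC00973 were higher and LINC01278 lower in BrM2 than in Par (0.0084, 0.047, 0.042 and 0.023), and LINC00973 was higher and LINC01278 lower in BrM2 than in LM2 (0.024 and 0.032).

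Replicate 1 deviated in the members and in other genes, and the size of the deviation regardless of direction was not compared between them. Over the 117 members with a known transcript GC content, its difference from replicates 2 and 3 rose with GC content (Spearman correlation 0.477). This correlation was not computed over all tested genes, so it cannot be called particular to the members. The cause was not tested. The median log2 difference of replicate 1 from the mean of replicates 2 and 3 was -0.163 over the members and 0.00542 over all tested genes, and 41 members (34.2%) were lower in replicate 1 in all 3 lines, against 41.7% of all genes.

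Long noncoding RNAs named otherwise were looked at from a list of 55, of which 34 were tested, 19 were under 200 counts and 2 were not found in the table. Against Par, 1 was higher and 2 were lower in LM2, and 2 were higher and 2 lower in BrM2, and between BrM2 and LM2 2 were higher and 2 lower, where 8.07%, 12.4% and 7.45% of all tested genes were called. With the block the numbers were 8 and 5, 6 and 9, and 5 and 9, where 33.6%, 41.4% and 36.3% of all genes were called. UCA1, described as growth-promoting in bladder and other carcinomas, was at 8.86 ± 2.72 CPM in Par, 0.195 ± 0.133 in LM2 and 1.19 ± 0.423 in BrM2 (SD, n = 3) and so was ordered like LINC02009, highest in Par and lowest in LM2. MANCR was at 28.4 ± 8.19, 6.13 ± 1.68 and 46.4 ± 8.33 CPM, lower in LM2 than in Par (log2 fold change -2.21 ± 0.31, adjusted p = 0.0027) and higher in BrM2 than in LM2 (2.92 ± 0.32, adjusted p = 0.00078). PURPL, an RNA induced by p53, was at 0.0466 ± 0.00688, 0.858 ± 0.736 and 3.01 ± 1.42 CPM and passed as higher in both populations than in Par (adjusted p = 0.029 and 0.0026). LUCAT1 was lower in BrM2 than in Par and LM2 by 1.49 and 1.16 on the log2 scale. The nuclear RNAs MALAT1 and NEAT1 and the DNA-damage-responsive NORAD passed in no comparison without the block, with SDs in Par of 116, 147 and 135 CPM around means of 181, 245 and 430 CPM. With the block MALAT1 was lower than in Par in LM2 and BrM2 (log2 fold changes -0.94 and -0.95, adjusted p = 0.00041 and 0.00028), NEAT1 likewise (adjusted p = 0.011 and 0.00066), and NORAD passed in neither fit.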

How the data were processed

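RNA of the parental cells and both selected populations was made by the authors into stranded, poly(A)-based mRNA libraries, sequenced as paired ends, aligned to hg38 and counted per gene with STAR 2.7.0, and the raw counts were deposited without normalisation or pooling. The submitters' processing notes also list CASAVA 1.8.2 and DESeq2. The strand that was counted is not given in the sources used here, and RNAs without a poly(A) tail are depleted. A deposited table of the authors' own DESeq2 comparisons (fold changes and p-values) was not used.

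The table had 58887 rows. For 3 identifiers listed under a pair of symbols with identical counts, 1 row was kept, which left 58884 genes. Members and lists were chosen with earlier results of these data known. Genes with 200 or more summed counts (13326) were tested with edgeR 4.0.16, TMM normalisation and the 2-sided quasi-likelihood test, with 3 lines as groups over 9 libraries and Benjamini-Hochberg adjustment over all tested genes (threshold 0.05). The study's HTSFilter takes a gene by its largest library and was not run itself. A filter written after it, which kept 97 of the 120 members, was an alternative beside filterByExpr, no filter, RLE factors, DESeq2 1.42.0, a replicate block and left-out libraries. The same-number correlations of 0.237 to 0.896 in all 9 pairs of libraries were taken as pairing the replicates, which the methods describe as passages. They cannot show a pairing of replicates 2 and 3 by themselves. Deviations were taken from means of 3 libraries, so a shift of replicate 1 shared by the lines also makes replicates 2 and 3 correlate. The common dispersion was 0.109 without and 0.0207 with the block. CPM are counts scaled to a common normalised library size. A line with at most 3 counts in each library was at the floor, and ratios to it carry exact 95% intervals for counting error only. Data were simulated for LM2 against Par with 200 of 13326 genes changed by 1 or by 2 (log2). Where differences between replicate numbers were built in, edgeR without the block recovered 0% of changes of 1 and 71.5% of changes of 2. With the block it recovered 83% and 100%, beside 17 and 20 false calls. Where no such differences were built in, the shares were 0% and 71% without the block, and 0% and 66% with it. The first setting assumes the differences that the block removes, so it cannot show whether the block suits the real libraries.

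Positions and promoters came from RefSeq GRCh38.p14, in which 105 members matched by symbol and 15 under newer symbols. Strand, distances, overlaps (21 members with exons on the opposite strand, 3 on the same) and shared 50-base stretches (over 10% in 33 members) came from GENCODE v44 lifted to GRCh37, which held 117 members. Named members were the 10 with the most counts, the 8 largest rises and falls per comparison among called members without overlap, those absent from a line and abundant in another, and those of the cancer and peptide lists. Other called members are named after their values were seen. R 4.3.3, Python 3.11.15, numpy 2.4.6 and pandas 2.3.3 were used.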

Additional observations from a re-analysis of the deposited data

Results flagged for a closer look

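LINC01234 and LINC01929 differed from Par in opposite directions in the 2 metastatic populations, and the direct comparison tested that difference. LINC01234 rose in LM2 (log2 fold change 1.89) and fell in BrM2 (-4.55), and the difference of BrM2 from LM2 was -6.44 (edgeR, adjusted p = 7.3e-05, same direction in all fits with 1 library left out). LINC01929 was lower in LM2 and rose in BrM2 (2.69), and the fitted difference of BrM2 from LM2 was 6.76 (adjusted p = 0.00051), a value that depends on the prior count of the fit because LM2 held 2 counts in all.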

How the results depend on the processing

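Precision is limited by depth, since the median member had 514 counts over 9 libraries, and by 3 replicates per line. The replicate number as a block raised the members past the threshold from 18 to 42 in LM2 against Par, from 30 to 58 in BrM2 against Par and from 20 to 52 in BrM2 against LM2 (all genes 4476, 5520 and 4841). DESeq2 gave 31, 34 and 30 members (all genes 1843, 2425 and 1750), and with the block 37, 53 and 47 (all genes 4549, 5492 and 4867). The 18, 30 and 20 members called were all called again under these fits, RLE factors and filterByExpr, 18, 28 and 18 of them under the HTSFilter-style filter and 15, 27 and 17 with no filter, where tests of many low-count genes were added. With libraries left out, in all fits with replicate numbers dropped as well, members called ranged from 3 to 38, 4 to 52 and 2 to 40 and all genes from 78 to 4274, 148 to 5189 and 58 to 4190. The low ends were fits without replicate 2 in all lines, the high ends fits without replicate 1, and fits without replicate 3 gave 4, 6 and 4 members. Without replicate 1 but with the block, 32, 48 and 35 members and 3603, 4727 and 3662 genes were called. With limits of 100 or 500 summed counts the rule would take 186 or 63 genes. Over the fits with 1 library left out, 28, 14 and 24 of the 120 members took either sign, and none of these passed with all libraries, with the block or in such a fit. The alternatives were followed one by one for the named members, whose directions turned only where neither setting passed. The values of those named members over the fits with libraries left out, in LM2 against Par, were -0.54 to 0.08 for LINC00472, -1.48 to 2.47 for LINC02582, -0.23 to 0.16 for LINC01278 (-0.02 with the replicate block), -0.19 to 0.08 for LINC00973, -0.02 to 0.16 for LINC01116, -0.12 to 0.37 for LINC00665 and -0.25 to 0.13 for LINC00662. In BrM2 against Par they were -0.09 to 0.27 for LINC00665, and in BrM2 against LM2 -0.57 to 0.18 for LINC00472, -0.09 to 0.22 for LINC01139, -1.16 to 0.36 for LINC00639 and -0.28 to 0.22 for LINC00665. Without replicate 1 and with the block, the turned values in LM2 against Par were -1.47 for LINC02582, -0.14 for LINC01278, 0.08 for LINC00973, 0.0 for LINC00665 and 0.05 for LINC00662, and in BrM2 against LM2 0.05 for LINC00665. The cause of these changes was not tested.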
